A study of Mus musculus with 6 samples.

Results

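The replication-dependent histone genes encode the core and linker histones that package newly copied DNA. They were chosen by biotype and symbol, as the protein-coding rows whose symbol starts with Hist1h, Hist2h, Hist3h or Hist4h, which gave 67 of the 54532 genes in the table. The set holds 6 H1, 18 H2A, 18 H2B, 12 H3 and 13 H4 genes. The Hist1 cluster on chromosome 13 has 54 of them, the Hist2 cluster on chromosome 3 has 10, the Hist3 cluster on chromosome 11 has 2, and Hist4h4 stands alone on chromosome 6. The rule reads no measured value, but the set was proposed with earlier results of the same comparison in view, so the differences below are a description and support nothing further.

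RNA was taken from whole pancreatic islets of mice 7 weeks old. The bKO group (n = 3 libraries) carried the genotype Ythdc1-betaKO, and the control group (n = 3 libraries) carried Ythdc1flox/flox. Ythdc1 encodes a nuclear protein that binds N6-methyladenosine in RNA. The labels describe 3 biological replicates in each group and give neither the Cre driver nor whether animals were pooled. The descriptions of bKO replicates 2 and 3 name Ythdc2-βKO and Ythdc3-βKO, whereas the genotype label of all 3 reads Ythdc1-betaKO, and the groups follow the genotype label.

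Ythdc1 itself had 3.81, 3.79 and 3.87 FPKM (fragments per kilobase, a level per length that these files scale by size factors) in bKO islets, against 5.76, 6.46 and 6.18 FPKM in control islets. It was therefore lower but still present in every bKO library. The files keep whole reads, from 17145960 to 17770058 a library in bKO and from 16863329 to 18240339 in control. Of 15717 genes tested across the table, 1408 were called higher in bKO (8.96%) and 1784 lower (11.4%).

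Most mRNAs end in a poly(A) tail, but a replication-dependent histone mRNA normally ends just after a short stem-loop, which the stem-loop binding protein SLBP holds. These mRNAs accumulate in S phase, when DNA is copied, and are degraded when replication stops. Some of the same genes also give polyadenylated transcripts that run past the stem-loop, and these are known from differentiated cells. The libraries were made from RNA captured through its poly(A) tail. More transcripts of a histone gene and a larger tailed part of them can therefore not be told apart here. In bulk islet RNA, more cells of a type and more RNA per cell cannot be told apart either.

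The stem-loops of 6 members are shown to mark where the tail-less form ends and how the H4 genes differ from the other classes. A script found them downstream of the stop codon in the annotated transcripts (GENCODE vM21, GRCm38). Capitals mark both arms of the stem, and the loop between them and the flanks are in lower case.

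Hist1h1c (chr13:23739507-23739532, plus strand): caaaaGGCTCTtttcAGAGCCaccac
Hist1h3e (chr13:23561898-23561923, minus strand): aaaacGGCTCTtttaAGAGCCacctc
Hist1h4c (chr13:23698084-23698109, minus strand): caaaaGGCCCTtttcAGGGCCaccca
Hist1h4d (chr13:23581945-23581970, plus strand): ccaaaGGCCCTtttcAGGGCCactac
Hist1h4j (chr13:21735432-21735457, plus strand): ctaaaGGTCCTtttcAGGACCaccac
Hist2h4 (chr3:96262934-96262959, minus strand): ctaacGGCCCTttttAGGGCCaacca

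An annotated transcript held a stem-loop in 46 of the 67 members, and only fully paired stems were taken. Many of the other gene models stop at or near the stop codon, so a stem-loop past it could not be found. In the 46 members, 21 to 58 bases lay between the stop codon and the stem-loop, with a median of 31. All 34 H1, H2A, H2B and H3 members with a stem-loop had the same stem, which is the one printed for Hist1h1c. The 12 H4 members had other stems. Of these, 10 carried the stem printed for Hist1h4c and 2 that of Hist1h4j.

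Promoter stretches of 4 members are shown to mark a short element that the H4 promoters share. The part of this element in the levels or calls of the members was not tested. Hist1h4c and Hist1h4d were among the members with the highest ratios, whereas Hist1h4i and Hist1h1c were not called. Each stretch covers the 150 bases before the annotated start (RefSeq, GRCm38.p6). Capitals mark GTCCG, which belongs to an H4 promoter element bound by the factor HINFP, the CCAAT box and TATAAA, each on either strand.

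Hist1h4c (chr13:23698459-23698608, minus strand): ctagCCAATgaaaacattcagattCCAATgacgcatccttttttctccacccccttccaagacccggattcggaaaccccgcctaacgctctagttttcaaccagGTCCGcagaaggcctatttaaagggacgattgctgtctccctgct
Hist1h4d (chr13:23581418-23581567, plus strand): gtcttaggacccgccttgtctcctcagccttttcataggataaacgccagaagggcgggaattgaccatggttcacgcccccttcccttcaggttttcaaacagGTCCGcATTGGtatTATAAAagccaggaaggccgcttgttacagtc
Hist1h4i (chr13:22041363-22041512, minus strand): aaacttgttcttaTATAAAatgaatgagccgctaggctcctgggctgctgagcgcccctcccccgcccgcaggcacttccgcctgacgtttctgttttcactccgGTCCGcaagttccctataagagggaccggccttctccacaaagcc
Hist1h1c (chr13:23738657-23738806, plus strand): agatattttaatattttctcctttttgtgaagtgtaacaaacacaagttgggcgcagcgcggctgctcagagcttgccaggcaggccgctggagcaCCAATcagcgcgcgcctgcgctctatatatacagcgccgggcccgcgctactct

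RefSeq promoters of 300 bases were matched to 61 of the 67 members, with 62 starts. GTCCG on either strand occurred in 12 of 12 H4 promoters, 8 of 17 H2A, 6 of 17 H2B, 1 of 10 H3 and 0 of 6 H1 promoters, against 23.4% of all 32851 promoters. CCAAT occurred in 3 of 12 H4 promoters and in every H1, H2A, H2B and H3 promoter, against 37.4% of all promoters. TATAAA occurred in 35 of the 62, against 13.6%. The octamer ATTTGCAT, known from H2B promoters, occurred in 7 of 17 H2A and 7 of 17 H2B promoters and in 0 of the others, against 1.74%. Neighbouring H2A and H2B genes are transcribed away from a shared promoter, so their windows overlap and are not separate examples. H4 members called higher and H4 members not called both carried GTCCG. These matches describe letters in a window and not bound sites.

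Reads fell on 59 of the 67 members, and 8 had 0 reads in all 6 libraries. With 104654763 reads in all, a count of 0 allows a share of up to 2.87e-06% for each of these genes, for counting error only. Of the 8, Hist2h2aa1, Hist2h2aa2, Hist2h2bb, Hist2h3b and Hist2h3c1 had every 150-base stretch of their transcript in a transcript of another gene, and Hist1h2ap had 91.0% of them. How reads with several matches were counted is not given in the sources used here, and its part in these zeros was not tested. The other 2 were Hist1h2aa and Hist1h2ba, which encode testis forms of H2A and H2B.

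The members together took 29407 reads in bKO and 21104 reads in control. Their summed level was 485, 501 and 447 FPKM in bKO libraries, against 361, 314 and 377 FPKM in control libraries. The groups did not overlap. The means were 478 ± 27.5 FPKM in bKO and 351 ± 32.9 FPKM in control (SD, n = 3 each), a ratio of 1.36. As a share of all recovered reads the members took 0.0563% ± 0.0035 in bKO and 0.0404% ± 0.0036 in control (SD, n = 3 each), a ratio of 1.39. With the reads of the insulin genes Ins1 and Ins2 left out of the totals, the ratio was 1.28.

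Hist1h1c, which encodes one of the linker histones, was the most abundant member. It had 110, 127 and 107 FPKM in bKO, against 132, 116 and 127 FPKM in control, and the groups overlapped. Its transcripts made up 24.01% of the members' FPKM in bKO and 35.6% in control. Hist1h2bc, an H2B gene whose annotation includes a spliced form, followed with 56.6, 58.5 and 48.99 FPKM in bKO, against 56.4, 51.0 and 54.2 FPKM in control. Neither was called (log2 difference -0.12, SE 0.08, limma adjusted p = 0.307 for Hist1h1c, and 0.02, SE 0.07, adjusted p = 0.883 for Hist1h2bc). Without these genes the sum was 308 ± 14.8 FPKM in bKO and 172 ± 24.1 FPKM in control (SD, n = 3 each), a ratio of 1.80.

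In the order of mean level over the 6 libraries, Hist1h1c stood apart from every other member. The ranges of each later pair of neighbours overlapped among the first 24 members. Within control libraries alone, several further pairs stood apart, among them Hist1h2bc above Hist3h2ba, Hist1h4i above Hist1h2bg and Hist1h4h above Hist1h4m. Over all 6 libraries the order from rank 2 to rank 24 is therefore not resolved between neighbours.

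**Figure D1:**
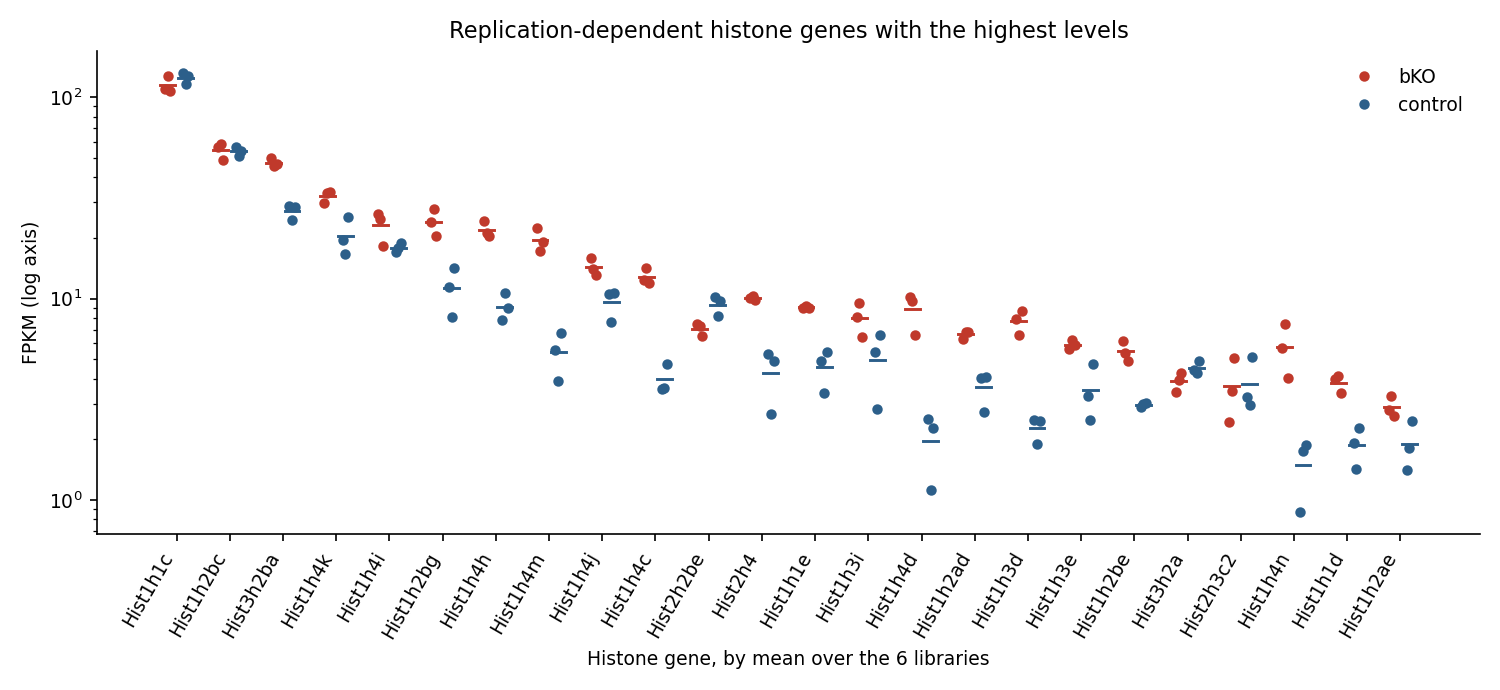
FPKM of the 24 histone genes with the highest mean over the 6 libraries, on a log axis; points are libraries (bKO left, control right) and bars are group means. Hist1h1c and Hist1h2bc overlap between the groups, while all 3 bKO libraries lie above all 3 control libraries for Hist3h2ba, Hist1h4h, Hist1h4m, Hist1h4c and Hist1h4d.

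A member was tested when it reached 0.5 FPKM in at least 3 libraries, and 40 of the 67 did. Of these 40, 18 were called higher in bKO, 2 lower and 20 neither way by limma on log2(FPKM + 1), at an adjusted p under 0.05 over all genes. The same calls covered 8.96% (higher) and 11.4% (lower) of all genes tested. Because the set was proposed from this contrast, nothing is read from the gap between those shares. The median log2 difference of the 40 was 0.58, and that of all genes tested was -0.01. Hist4h4 and Hist1h2bf passed only through bKO libraries, with 0 control libraries at 0.5 FPKM, and so were bound to be higher. In 11 of the 40, fewer than 3 control libraries reached that level.

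Among all 67 members, 23 had every bKO library above every control library and 2 had every bKO library below. Among the 40 tested members these counts were 21 and 2, and over all genes tested the shares were 18.5% and 21.6%. The set was proposed from this contrast, so nothing is read from these counts. Of the 59 members with reads, 48 had the higher mean in bKO. Scaling by library totals in place of size factors moved the median of all genes tested to 0.13 and that of the histone members to 0.70.

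**Figure D2:**
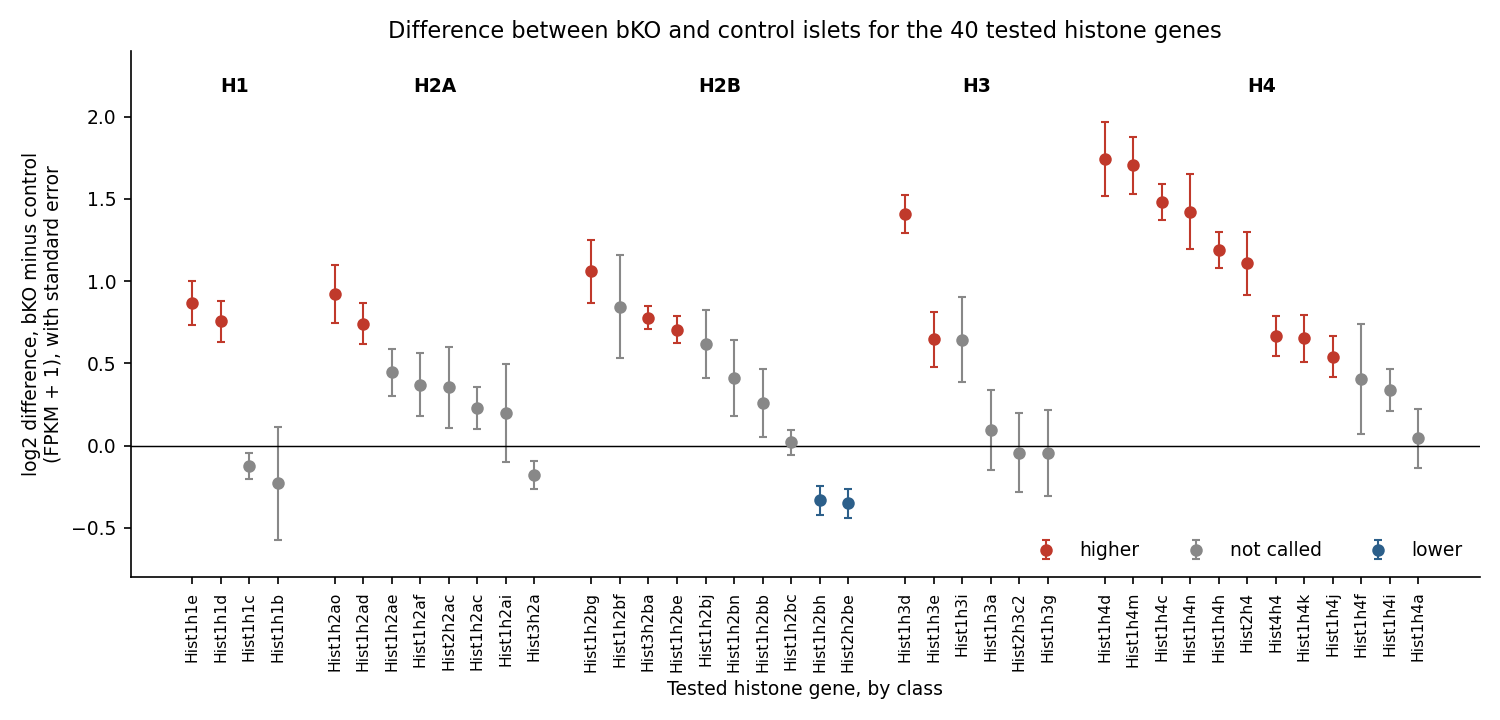
Log2 difference, bKO minus control, on the log2(FPKM + 1) scale with its standard error for the 40 tested histone genes, grouped by class and coloured by call at an adjusted p under 0.05. The H4 genes run from 0.04 to 1.74 and all lie above 0, while the 2 members called lower are both H2B genes.

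H1 proteins bind the DNA between nucleosomes. Summed over the class, H1 had 124, 142 and 120 FPKM in bKO, against 140, 121 and 137 FPKM in control, and the groups overlapped. The mean was 129 ± 11.6 FPKM in bKO and 133 ± 9.86 FPKM in control (SD, n = 3 each), a ratio of 0.971. On the scale of recovered reads as a share of the library the ratio was 1.17, or 1.07 without the reads of Ins1 and Ins2. That scale uses library totals and gives long genes more weight. The direction for H1 therefore differs between these measures. Hist1h1c makes up most of this sum. Hist1h1e rose, with 9.01, 9.18 and 8.97 FPKM in bKO, against 4.89, 3.40 and 5.44 FPKM in control (log2 difference 0.87, SE 0.13, limma adjusted p = 0.00616). Hist1h1d also rose, to 3.82 ± 0.394 FPKM in bKO against 1.87 ± 0.421 FPKM in control (SD, n = 3 each). Hist1h1t, the testis H1, had 25 reads in bKO and 7 in control and was not tested.

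H2A and H2B form the dimers that flank the central tetramer of the nucleosome. H2A members summed to 21.4, 20.7 and 21.96 FPKM in bKO, against 13.6, 12.5 and 17.1 FPKM in control. The H2A groups did not overlap, and the ratio was 1.48. Of 8 tested H2A genes, 2 were called higher and 0 lower, against 8.96% and 11.4% of all genes tested. Hist1h2ad had 6.28, 6.85 and 6.81 FPKM in bKO, against 4.02, 2.74 and 4.10 FPKM in control (log2 difference 0.74, SE 0.12, limma adjusted p = 0.0081). Other genes, chiefly Hist1h2ah, hold 59.3% of its 150-base stretches, so its reads cannot be assigned with certainty. Hist1h2ao had 49 reads in bKO and 12 in control, with a log2 difference of 0.92 (SE 0.18, limma adjusted p = 0.0138). Hist1h2ao shares 91.5% of its 150-base stretches with other genes, chiefly Hist1h2ap, so reads cannot be assigned to it with certainty. All 18 H2A members overlap a gene annotated on the other strand, and 17 of these 20 partners were at 0 in every library. The strand setting of the counting is likewise not stated, and the part of these overlaps in the H2A levels was not tested.

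H2B members summed to 153, 153 and 136 FPKM in bKO, against 117, 99.5 and 117 FPKM in control, a ratio of 1.33. Of 10 tested H2B genes, 3 were called higher and 2 lower, against 8.96% and 11.4% of all genes tested. No other class held a member called lower. Hist3h2ba, on chromosome 11 at 58948920 to 58949533, had 50.03, 45.4 and 46.3 FPKM in bKO, against 28.7, 24.5 and 28.3 FPKM in control (log2 difference 0.78, SE 0.07, limma adjusted p = 0.000891). None of its 150-base stretches occurs in another gene's transcripts. Hist1h2bg had 24.01, 27.9 and 20.4 FPKM in bKO, against 11.5, 8.08 and 14.2 FPKM in control (log2 difference 1.06, SE 0.19, limma adjusted p = 0.0111). Both genes kept every bKO library above every control library. Of the stretches of Hist1h2bg, 39.0% are shared with other genes, most with Hist1h2bc. Hist1h2be was 5.47 ± 0.634 FPKM in bKO and 2.96 ± 0.0721 FPKM in control (SD, n = 3 each). It overlaps Hist1h1e on the same strand, so these members called higher are not fully separate measurements.

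Hist2h2be moved the other way. It had 7.49, 7.26 and 6.48 FPKM in bKO, against 10.1, 8.15 and 9.73 FPKM in control (log2 difference -0.35, SE 0.09, limma adjusted p = 0.034). Hist1h2bh had 1.18, 1.31 and 1.39 FPKM in bKO, against 2.03, 1.69 and 1.95 FPKM in control (log2 difference -0.33, SE 0.09, limma adjusted p = 0.0371). Neither pair of groups overlapped. Both calls were lost without any 1 of the bKO libraries, without control replicate 1 or 3, with no filter on low values and with scaling by library totals.

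H3, with H4, forms the central tetramer. H3 members summed to 27.3, 28.7 and 29.0 FPKM in bKO, against 17.8, 12.5 and 20.3 FPKM in control, a ratio of 1.68 without overlap. Of 6 tested H3 genes, 2 were called higher and 0 lower, against 8.96% and 11.4% of all genes tested. Hist1h3d had 7.88, 6.63 and 8.70 FPKM in bKO, against 2.49, 1.91 and 2.47 FPKM in control (log2 difference 1.41, SE 0.11, limma adjusted p = 0.000598). All its bKO values lay above its control values. Hist1h3e was 5.90 ± 0.299 FPKM in bKO and 3.50 ± 1.13 FPKM in control (SD, n = 3 each, adjusted p = 0.037 with limma), and its call was lost without any 1 of the bKO libraries and without control replicate 1 or 2. Hist1h3i, the H3 member with the highest mean, had 8.11, 9.53 and 6.45 FPKM in bKO, against 5.44, 2.82 and 6.61 FPKM in control. Its groups overlapped and it was not called (log2 difference 0.64, SE 0.26, limma adjusted p = 0.127).

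H4 had the largest ratio among the 5 classes. H4 members summed to 159, 156 and 140 FPKM in bKO, against 73.7, 67.9 and 85.7 FPKM in control. The mean was 152 ± 10.1 FPKM in bKO and 75.8 ± 9.10 FPKM in control (SD, n = 3 each), a ratio of 2.001. As a share of recovered reads the ratio was 2.35, or 2.16 without the reads of Ins1 and Ins2. H4 made up 31.7% of the members' FPKM in bKO and 21.6% in control, while H1 made up 27.0% in bKO and 37.8% in control. All 13 H4 genes had the higher mean in bKO, and 9 of the 12 tested were called higher, against 8.96% of all genes tested. The 9 include Hist4h4, which passed the filter only through bKO libraries and so was bound to be higher. The difference between classes was not tested, because the members were proposed from this contrast.

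**Figure D3:**
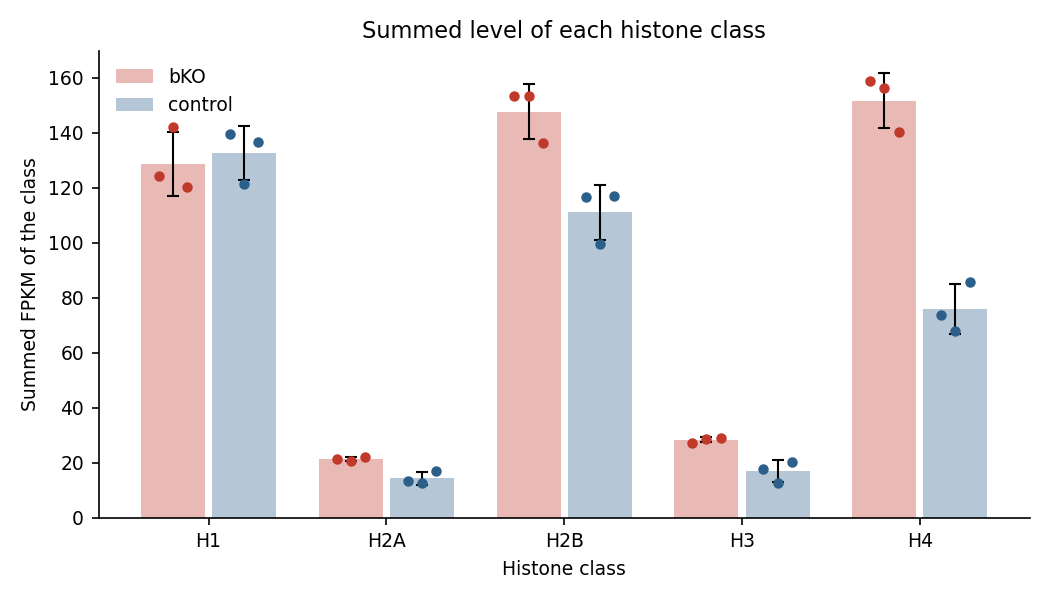
Summed FPKM of each histone class in each library (points), with the mean of 3 libraries (bars, bKO left and control right) and its SD. H4 reaches 152 in bKO and 75.8 in control, while H1 overlaps at 129 in bKO and 133 in control.

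Hist1h4d, on chromosome 13 at 23581598 to 23582735, had the largest log2 difference of the tested members. It had 10.2, 9.74 and 6.61 FPKM in bKO, against 2.51, 1.12 and 2.28 FPKM in control (log2 difference 1.74, SE 0.23, limma adjusted p = 0.00326). These values rest on 563 reads in bKO and 110 in control, and none of its 150-base stretches occurs in another gene's transcripts. Hist1h4c had 12.3, 14.2 and 11.9 FPKM in bKO, against 3.56, 3.61 and 4.74 FPKM in control (log2 difference 1.48, SE 0.11, limma adjusted p = 0.000437). Only 7.60% of its stretches are shared. Hist2h4, in another cluster, had 10.1, 10.3 and 9.85 FPKM in bKO, against 5.30, 2.67 and 4.88 FPKM in control (log2 difference 1.11, SE 0.19, limma adjusted p = 0.00924). Hist4h4 had 0.964, 1.14 and 0.793 FPKM in bKO, against 0.130, 0.324 and 0.259 FPKM in control. Hist1h4d, Hist1h4c and Hist2h4 had higher values in every bKO library than in any control library, and Hist4h4, which passed the filter only through bKO libraries, is given as values alone.

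Several H4 genes are near copies of each other. Hist1h4m had 22.4, 17.3 and 19.1 FPKM in bKO, against 5.56, 3.90 and 6.75 FPKM in control (log2 difference 1.70, SE 0.17, limma adjusted p = 0.00131). Hist1h4m shares 85.8% of its stretches with other genes, most with Hist1h4n. Hist1h4n had 5.69, 7.44 and 4.03 FPKM in bKO, against 0.867, 1.75 and 1.87 FPKM in control. The split of reads between these genes is uncertain. Hist1h4h, with 28.0% of its stretches shared, had 24.3, 21.2 and 20.4 FPKM in bKO, against 7.80, 10.6 and 8.93 FPKM in control (log2 difference 1.19, SE 0.11, limma adjusted p = 0.000969).

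Other abundant H4 genes had smaller differences than Hist1h4m and Hist1h4h. Hist1h4k had 29.7, 33.6 and 33.8 FPKM in bKO, against 19.5, 16.6 and 25.5 FPKM in control (log2 difference 0.65, SE 0.14, limma adjusted p = 0.0214). Its gene model is 312 bases, the shortest of the members and below the 370 to 420 base fragments the protocol selected, so its level per length is uncertain. Hist1h4j had 15.8, 14.0 and 13.1 FPKM in bKO, against 10.5, 7.65 and 10.6 FPKM in control (log2 difference 0.54, SE 0.13, limma adjusted p = 0.0262). Hist1h4i had 26.1, 24.9 and 18.3 FPKM in bKO, against 17.0, 17.8 and 18.9 FPKM in control, overlapped and was not called (adjusted p = 0.109 with limma). The calls for Hist1h4k and Hist1h4j were lost without bKO replicate 2 and with no filter on low values. That for Hist1h4k was also lost without bKO replicate 3 or control replicate 1, and that for Hist1h4j without bKO replicate 1.

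Calls fell on members with and without shared sequence. Of 20 members with under 10% of their stretches shared, 15 were tested, and 7 were called higher and 2 lower. The 7 include Hist4h4, which passed the filter only through bKO libraries and so was bound to be higher. Of 24 members with 50% or more shared, 9 were tested, and 5 were called higher and 0 lower. Over all genes tested, 8.96% were called higher and 11.4% lower, and nothing is read from these counts.

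By cluster, 15 of 33 tested Hist1 members were called higher and 1 lower, against 8.96% and 11.4% of all genes tested. In Hist2, 1 of 4 was called higher and 1 lower. In Hist3, Hist3h2ba was called higher, while Hist3h2a, 5152 bases from it, had 3.42, 3.96 and 4.28 FPKM in bKO, against 4.40, 4.27 and 4.89 FPKM in control and was not called. The Hist1 cluster falls into a block of 23 members near megabase 22 and one of 31 members near megabase 23. The first summed to 112 ± 8.21 FPKM in bKO and 65.4 ± 10.9 FPKM in control (SD, n = 3 each), and the second to 291 ± 21.4 FPKM in bKO and 235 ± 17.2 FPKM in control (SD, n = 3 each).

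In order along chromosome 13, the longest run of neighbouring members called higher had 5 genes, Hist1h2ad, Hist1h3d, Hist1h4d, Hist1h2be and Hist1h1e, from 23574381 to 23622558. Genes of 5 classes stand in this run. Next to it, Hist1h2bf had 34 reads in bKO and 5 in control and was not called. Farther along, Hist1h2bc and Hist1h4c lie within the same block, with log2 differences of 0.02 and 1.48. Members that are close on the chromosome therefore did not all have like differences.

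Annotated 3′ ends differed in median length between abundant and scarce members, with exceptions both ways. The longest annotated 3′ untranslated region had a median of 426.5 bases in the 24 members with the highest mean level and 75 bases in the other members. Gene models that stop at the stop codon count as 0 bases in these medians. Among the 24, Hist1h4k and Hist1h3i had 0 bases, while among the other members Hist4h4 had 2515 and Hist1h2ac 2058. Hist1h1c runs 840 bases past its stem-loop in the annotation, Hist1h4c 454, Hist1h4d 770 and Hist2h4 1257, whereas Hist1h4h ends 46 and Hist1h4m 3 bases after it. Annotated 3′ ends come from the reference and not from these libraries, so which end was used here was not measured.

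Grouped by that annotation, 23 members run 100 bases or more past the stem-loop. Of 20 tested in this group, 12 were called higher and 1 lower. They summed to 304 ± 19.3 FPKM in bKO and 231 ± 21.4 FPKM in control (SD, n = 3 each), a ratio of 1.31. Another 23 members end within 100 bases of the stem-loop. Of 12 tested, 5 were called higher and 0 lower, and they summed to 66.0 ± 4.09 FPKM in bKO and 26.4 ± 1.70 FPKM in control (SD, n = 3 each), a ratio of 2.50. The remaining 21 members have no stem-loop in an annotated transcript, and of 8 tested, 1 was called higher and 1 lower. Many of these gene models stop at or near the stop codon. Hist1h4k, Hist1h3i, Hist1h1b and Hist1h2ai have an annotated 3′ untranslated region of 0 bases, so a stem-loop beyond it could not be found. A stem-loop missing here therefore does not show that the gene lacks one. The median log2 differences of the tested members were 0.66 where the transcript runs past the stem-loop and 0.68 where it ends near it. These medians include Hist4h4 in the first group and Hist1h2bf in the second. Both passed the filter only through bKO libraries and so were bound to be higher. Hist4h4 is also among the 12 called higher. Over all genes tested, 8.96% were called higher and 11.4% lower. Hist1h1c, not called, makes up 115 of the 304 FPKM in bKO and 125 of the 231 FPKM in control. Hist1h4h and Hist1h4m, both called higher, are the most abundant members of the group that ends near the stem-loop. Each of these sums therefore leans on few members, and a difference between the end groups was not tested. The sum of the members with no stem-loop was 108 ± 6.55 FPKM in bKO and 93.0 ± 10.1 FPKM in control (SD, n = 3 each).

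**Figure D4:**
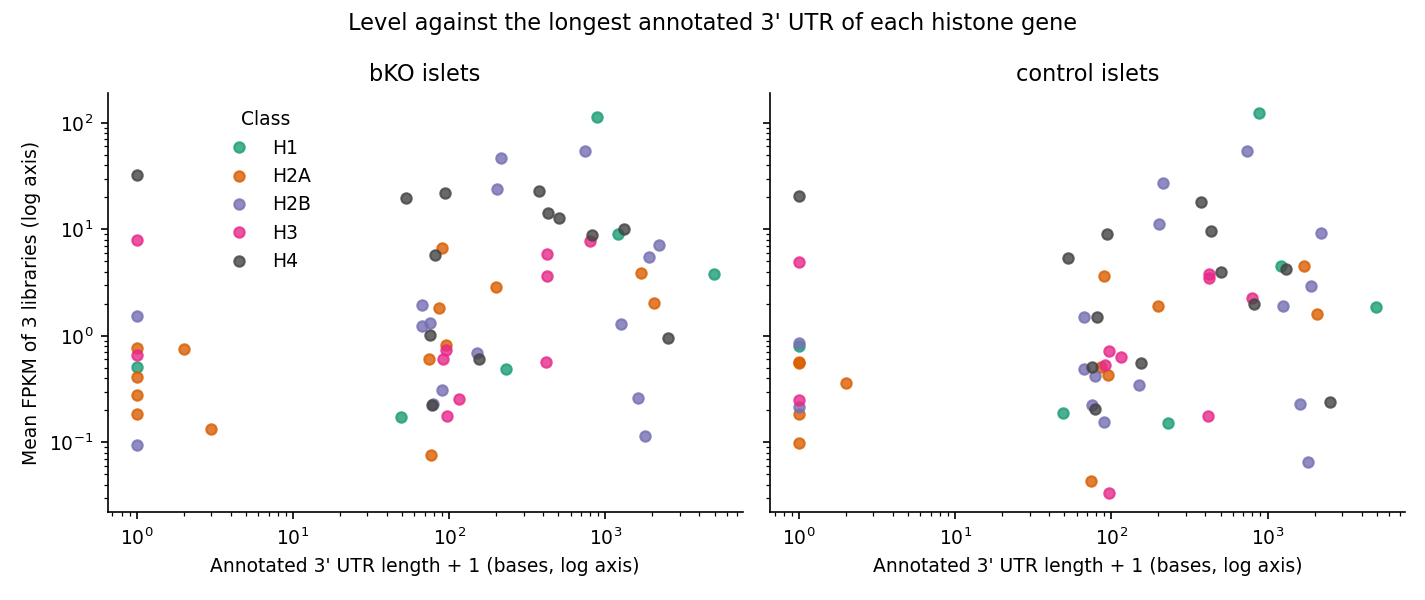
Mean FPKM of 3 libraries (log axis) against the longest annotated 3′ untranslated region plus 1 base (log axis) for histone genes with reads, bKO islets at left and control islets at right, coloured by class; genes at 0 in a group are not drawn there. The most abundant member, Hist1h1c, lies far to the right of the many members annotated with fewer than 100 bases. Several scarcer members, among them Hist4h4 and Hist1h2ac, lie farther right still.

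The machinery that makes these mRNAs was described with a list of 21 genes for 3′ end processing and the histone locus body, all tested. Of these, 3 were called higher and 4 lower, with a median log2 difference of -0.09 against -0.01 over all genes tested. The same calls covered 8.96% (higher) and 11.4% (lower) of all genes tested, and nothing is read from these few calls. Coil, which encodes the Cajal body scaffold coilin, rose to 6.70 ± 0.501 FPKM in bKO against 4.73 ± 0.493 FPKM in control (SD, n = 3 each). Ice1 and Casp8ap2 also rose, with log2 differences of 0.24 and 0.25. Snrpe and Snrpg, which encode proteins of the ring shared by spliceosomal and U7 particles, fell, with log2 differences of -0.83 and -0.55, and Ybx1 and Cstf2t fell by 0.26 and 0.17. Slbp, named for its role, had 3.02 ± 0.148 FPKM in bKO and 3.70 ± 0.231 FPKM in control (SD, n = 3 each) and was not called (adjusted p = 0.0571 with limma). Npat, the activator of histone gene transcription, was not called either (4.74 ± 0.236 FPKM in bKO and 5.01 ± 0.162 FPKM in control, SD, n = 3 each).

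Of 9 listed genes for histone mRNA decay, 7 were found by symbol and tested, and 0 were called. Among 12 tested variant histone genes outside the name rule, 1 was called higher and 4 lower, with a median of -0.15. Over all genes tested, 8.96% were called higher and 11.4% lower, and the median was -0.01. H3f3b, which encodes the replacement histone H3.3, rose by a log2 difference of 0.14. H2afx, H2afy, H2afy2 and the centromeric variant Cenpa fell, with log2 differences of -0.35, -0.15, -0.29 and -0.39. Of 22 histone chaperones, all tested, 0 were called higher and 3 lower, which is near the 11.4% of all genes tested called lower. Asf1b, among the 3, had 0.743 ± 0.123 FPKM in bKO and 1.57 ± 0.108 FPKM in control (SD, n = 3 each).

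Replication itself was described with a list of genes for S phase and DNA replication. Of 29 tested, 0 were called higher and 3 lower, with a median log2 difference of -0.16, and 11.4% of all genes tested were called lower. Mki67, the proliferation marker, fell to 1.94 ± 0.213 FPKM in bKO against 4.20 ± 0.333 FPKM in control (SD, n = 3 each). Top2a, a topoisomerase, fell to 1.84 ± 0.121 FPKM in bKO against 4.01 ± 0.649 FPKM in control (SD, n = 3 each). Ccna2, which encodes cyclin A2, was the other gene called lower. The summed level of the list ran from 72.6 to 79.8 FPKM in bKO and from 87.6 to 96.9 FPKM in control.

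Cell markers also moved between the groups. For the counts that follow, 8.96% of all genes tested were called higher and 11.4% lower. Summed beta cell markers ran from 130176 to 139217 FPKM in bKO and from 199965 to 221602 FPKM in control, with 3 of 4 called lower, and no marker was at 0. Macrophage markers were called lower in 3 of 7, summing to 107 to 129 FPKM in bKO and 181 to 199 FPKM in control. Most of that sum was Cd74 (mean 56.2 FPKM in bKO and 89.0 in control) and C1qa (40.6 and 58.6). Cd68, not called, went the other way, with a log2 difference of 0.13. Endothelial markers were called higher in 2 of 5 (78.4 to 79.9 FPKM in bKO and 61.3 to 70.3 FPKM in control), erythroid markers in 2 of 3 and mesenchymal markers in 1 of 4. Ppy, the marker of PP cells, had 8855, 8292 and 10843 FPKM in bKO, against 3939, 5226 and 3808 FPKM in control (log2 difference 1.11, SE 0.16, limma adjusted p = 0.00435), without overlap. Among 5 lymphocyte markers only the B cell gene Cd79a was tested, and it fell to 1.27 ± 0.479 FPKM in bKO against 5.84 ± 1.58 FPKM in control (SD, n = 3 each, log2 difference -1.59). The alpha cell gene Irx2 rose by a log2 difference of 0.38, while Gcg was not called. Of the delta cell markers 0 of 2 were called, and of the pan-endocrine markers Chga fell, by a log2 difference of -0.35, and Pcsk2 was not called. The differences of Ppy and Cd79a were as large as those of many histone members. Acinar and duct markers gave 0 calls among 5 and 2 tested. The part of these cell markers in the histone differences was not tested.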

How the data were processed

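Islet RNA was captured by its poly(A) tail and sequenced as read pairs. Per the labels' protocols, HISAT2 2.0.5 placed the pairs on GRCm38, and featureCounts 1.5.0-p3 quantified genes. CASAVA and DESeq2 1.20.0 appear in the submitters' processing notes without a role. The authors deposited FPKM per gene with gene lengths and biotypes. All deposited FPKM values above 0 came to whole reads within 0.01 (100% of values), and they are scaled by size factors (0.919 to 1.10) and not by library totals.

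Genes with FPKM of at least 0.5 in at least 3 of the 6 libraries (15717) were fitted with limma 3.58.1 (R 4.3.3) on log2(FPKM + 1), bKO against control with no covariate and a mean-variance trend. This scale understates the change of low genes. P-values were adjusted over all genes by Benjamini-Hochberg with a threshold of 0.05. Members and gene lists were chosen with earlier results of these data known. The genes named were Ythdc1, the 12 members with the highest mean, the highest member of each class in each cluster, up to 10 called members in each direction, and up to 4 genes of each other list by smallest adjusted p. Hist1h3e, Hist1h2be, Hist1h1d, other members and some genes of the other lists, among them Slbp and Npat, fell outside that rule. These were named after their values were seen. Stem-loops, overlaps and shared 150-base stretches came from GENCODE vM21 transcripts on either strand, and promoters from RefSeq, kept where the start lay on the member's strand and in or beside its span. Python 3.11.15 with pandas 2.3.3 was used for sums. Simulated data were used to check the fit, and 23 false positives stood among 170 calls, a larger part than the 0.05 threshold. Recovery was 66.2% for genes given a 1.5-fold difference, 73.4% for a 2-fold one and 91.9% for a 4-fold one.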

Additional observations from a re-analysis of the deposited data

How the results depend on the processing

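The count of histone members called (20) and called higher (18) stayed within 1.5 times under every alternative run, the latter from 14 without bKO replicate 2 to 21 with scaling by library totals. Members called lower numbered 0 with scaling by library totals, no filter on low values and the replicate block, 1 with voom on recovered reads, and 0 to 2 when single libraries were left out. Over all genes, scaling by library totals gave 3702 higher and 737 lower, raising the share of calls that were higher to 83.4%, against 44.1% with size factors. Leaving out single libraries gave 1830 to 2835 calls in all, 762 to 1227 higher and 1039 to 1608 lower. Replicate numbers were not seen to pair the libraries. Deviations of genes from their group means correlated at -0.052, -0.014 and -0.073 between same-numbered libraries. With 3 libraries in each group, these values cannot exclude a pairing. The replicate block gave 2077 calls (925 higher, 1152 lower) and 17 histone members higher. Among the 27 members followed through the alternatives, the sign turned in members that were not called. These were Hist1h1c with scaling by library totals (0.051) and quantile normalization (0.019), Hist1h2bc without bKO replicate 1, bKO replicate 2 or control replicate 2 (-0.031 to 0.095 over the libraries left out), and Hist2h3c2 with scaling by library totals (0.093) or without bKO replicate 1 or control replicate 3 (-0.26 to 0.15 over the libraries left out). Of the named members called, Hist2h2be lost its call in 8 of 14 alternatives, Hist1h2bh in 9, Hist1h3e in 7, Hist1h4k in 4 and Hist1h4j in 3. Hist1h4i gained one in 3. The cause was not tested. Depth limits the members under 0.5 FPKM, several of which rest on fewer than 20 reads a group.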

Other observations

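Among symbols of the histone clusters that are not annotated as protein-coding, the pseudogene Hist3h2bb-ps had 2.58, 3.80 and 2.09 FPKM in bKO, against 2.94, 1.75 and 1.59 FPKM in control, and the groups overlapped. Hist1h2aj and Hist1h2al had 0 to 2 reads in each library.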
